A study of Homo sapiens with 8 samples.

Results

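The results below describe the CpG sites at which 2 prostate cancer lines, LNCaP-FGC and PC3, had one methylation level and the cancer line DU145 and the non-cancerous line RWPE-1 had another. Sites were chosen by their betas in the 4 lines, a beta value being the share of a site's signal that comes from methylated DNA, from 0 to 1. A site was taken when the lower beta of LNCaP-FGC and PC3 was at least 0.3 above the higher beta of DU145 and RWPE-1, or when the reverse held with the same gap. Of 27578 sites on the array, 27541 had a beta in all 4 lines and 962 met the rule. LNCaP-FGC and PC3 were the higher pair at 418 of them, or 1.52% of sites, and the lower pair at 544, or 1.98%. The rule used all 4 betas, so the counts and betas of these sites are descriptions and carry no test.

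LNCaP-FGC is an androgen-sensitive line from a lymph node metastasis of prostate carcinoma, PC3 an androgen-independent line from a bone metastasis, and DU145 an androgen-independent line from a brain metastasis. RWPE-1, the control, comes from prostate epithelium without cancer and was immortalized with a papillomavirus. No line was treated. Each line had 1 array per assay, 8 samples in all: genomic DNA on a promoter-weighted methylation beadchip and total RNA on an expression beadchip, so there is no replicate error for any value. The pairing thus puts an androgen-sensitive line with an androgen-independent one, and a cancer line with the control.

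Methylation of cytosine at CpG dinucleotides is copied after replication by a maintenance methyltransferase, so a cell line carries its pattern through many divisions. Promoters rich in CpG are mostly free of it in normal cells. Prostate cancer is known both for gaining methylation at some of these promoters, often with silencing of the gene, and for losing it elsewhere. None of the tables used here pairs a site or a probe with a gene, so sites and probes are given by identifier, their sequence and position are not shown, and the lines could not be checked against marker genes of prostate epithelium.

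The site with the widest gap in the first direction was cg18755783. Its beta was 0.976 in LNCaP-FGC and 0.973 in PC3, against 0.00889 in DU145 and 0.00956 in RWPE-1. Site cg21634602 came next, with 0.974 in LNCaP-FGC and 0.975 in PC3, against 0.00357 in DU145 and 0.0137 in RWPE-1. Both sites were close to fully methylated in one pair and close to unmethylated in the other. In the second direction cg13311440 had a beta of 0.0493 in LNCaP-FGC and 0.0423 in PC3, against 0.867 in DU145 and 0.872 in RWPE-1. At cg24964364 the beta was 0.0716 in LNCaP-FGC and 0.0414 in PC3, against 0.877 in DU145 and 0.860 in RWPE-1. Here the lower pair was again near the bottom of the scale, but the upper pair stood below the level seen at the first 2 sites.

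At the sites with LNCaP-FGC and PC3 lower, RWPE-1 was the line of the upper pair whose deposited betas fell short at the top of the scale. At the 418 sites with LNCaP-FGC and PC3 higher, the median beta was 0.858 in LNCaP-FGC and 0.845 in PC3, against 0.0976 in DU145 and 0.0702 in RWPE-1. A beta below 0.2 was found at 279 of the 418 sites (66.7%) in DU145 and at 317 (75.8%) in RWPE-1, where the shares over all 27541 sites were 56.5% and 65.3%. A beta above 0.8 was found at 263 sites (62.9%) in LNCaP-FGC and 242 (57.9%) in PC3, where the shares over all sites were 14.7% and 15.9%. At the 544 sites with LNCaP-FGC and PC3 lower, the median beta was 0.132 in LNCaP-FGC and 0.193 in PC3, against 0.846 in DU145 and 0.759 in RWPE-1. In RWPE-1 most of these sites, 330 (60.7%), lay between 0.2 and 0.8 and 214 (39.3%) lay above 0.8, and in DU145 352 (64.7%) lay above 0.8. Over all sites 24.2% were above 0.8 in DU145 and 13.2% in RWPE-1. After quantile normalization the order of these lines turned round, with medians at the 544 sites of 0.736 in DU145 and 0.806 in RWPE-1. After a linear rescaling of each array the order was as deposited, with 0.829 in DU145 and 0.763 in RWPE-1. A beta below 0.2 was found at 366 of these sites (67.3%) in LNCaP-FGC and at 281 (51.7%) in PC3, where the shares over all sites were 61.1% and 59.4%.

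**Figure D1:**
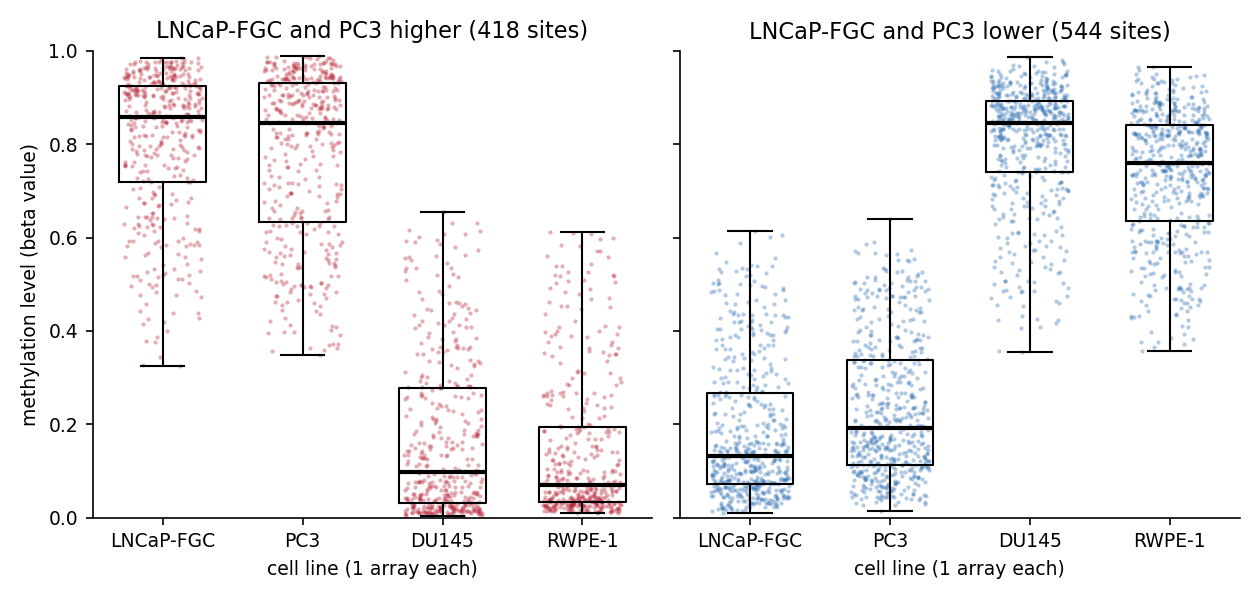
Beta values (vertical axis) of the 418 sites with LNCaP-FGC and PC3 higher (left) and the 544 sites with both lower (right) in each of the 4 lines. Each point is a site, boxes span the quartiles with the median as a thick line, and whiskers reach the lowest and highest site. The medians of the upper pair were 0.858 and 0.845 on the left and 0.846 and 0.759 on the right.

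The sites differed in how complete the switch was. With a beta below 0.2 called unmethylated, above 0.8 methylated and the rest intermediate, 72 of the 418 sites (17.2%) were methylated in LNCaP-FGC and PC3 and unmethylated in both other lines. The opposite full switch, unmethylated in LNCaP-FGC and PC3 and methylated in DU145 and RWPE-1, was found at 26 of the 544 sites (4.78%). The most frequent pattern in the first direction was intermediate in LNCaP-FGC and PC3 and unmethylated in DU145 and RWPE-1, at 83 sites (19.9%). In the second direction it was unmethylated in LNCaP-FGC and PC3 and intermediate in DU145 and RWPE-1, at 106 sites (19.5%). Next came 2 patterns of 83 sites (15.3%) each, one intermediate in LNCaP-FGC and PC3 and methylated in DU145 and RWPE-1, the other unmethylated in LNCaP-FGC and PC3, methylated in DU145 and intermediate in RWPE-1. The mirror of the second, with DU145 intermediate and RWPE-1 methylated, held 18 sites. All these classes were taken on deposited betas only, in which 24.2% of all sites were above 0.8 in DU145 and 13.2% in RWPE-1. After quantile normalization DU145 was above RWPE-1 at only 136 of the 544 sites, so the class counts of these 2 lines depend on the scaling.

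The gap itself, the distance between the nearest lines of the 2 pairs, had a median of 0.462 (quartiles 0.364 and 0.606) at the sites with LNCaP-FGC and PC3 higher and of 0.409 (quartiles 0.346 and 0.510) at those with both lower. Which direction held more sites turned on the size of the gap. At 0.2 or more there were 635 higher and 908 lower sites, and at 0.4 or more 271 and 283. At 0.5 or more the order was the other way, with 178 higher and 151 lower, and at 0.6 or more there were 109 and 59. At 0.8 or more 45 sites were higher and 1 was lower, cg13311440. On quantile-normalized betas, which give the 4 arrays one distribution, higher sites already led at 0.3, with 492 against 479, and at 0.8 the numbers were again 45 and 1. After a linear rescaling of each array lower sites led at 0.3, with 537 against 427, and at 0.4, with 289 against 270. Higher sites led at 0.5, with 177 against 156.

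**Figure D2:**
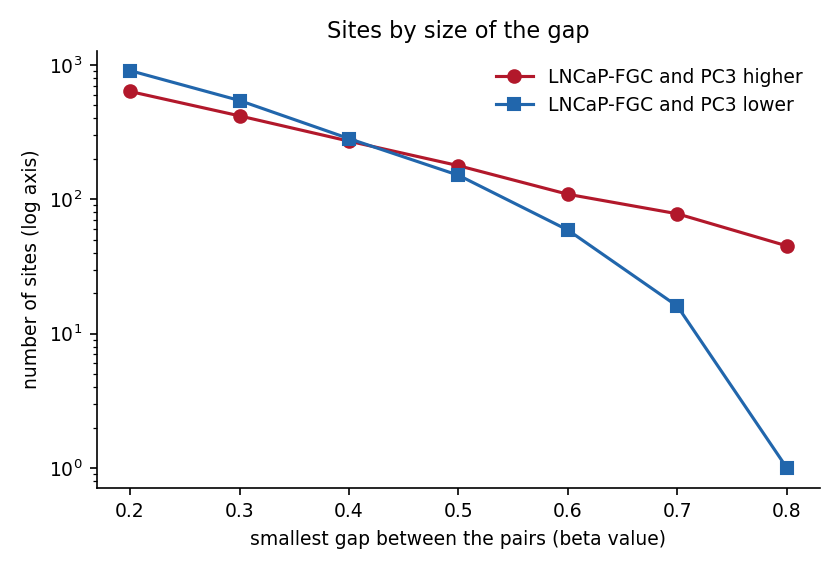
Number of sites (vertical axis, log scale) whose gap between the pairs is at least the beta value on the horizontal axis, with deposited betas. Circles stand for LNCaP-FGC and PC3 higher and squares for both lower. The lines cross between 0.4, with 271 higher and 283 lower sites, and 0.5, with 178 and 151.

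Sites with wide gaps lay near both ends of the scale. The 109 higher sites with a gap of 0.6 or more had median betas of 0.913 in LNCaP-FGC and 0.928 in PC3, against 0.0370 in DU145 and 0.0361 in RWPE-1. The 59 lower sites with such a gap had medians of 0.0752 in LNCaP-FGC and 0.112 in PC3, against 0.866 in DU145 and 0.831 in RWPE-1. Within a pair, the median distance between the lines was smaller at wide gaps, which leave less of the scale for it. At higher sites it was 0.102 for LNCaP-FGC and PC3 and 0.119 for DU145 and RWPE-1 at gaps below 0.4, and 0.0320 and 0.0244 at gaps of 0.6 or more. At lower sites it was 0.0895 and 0.102 at gaps below 0.4, and 0.0517 and 0.0561 at gaps of 0.6 or more. The 261 lower sites with a gap below 0.4 had medians of 0.159 in LNCaP-FGC and 0.263 in PC3, and of 0.848 in DU145 and 0.724 in RWPE-1. At the threshold, the higher site just inside the rule had a gap of 0.301, with betas of 0.325 in LNCaP-FGC and 0.678 in PC3, against 0.0141 in DU145 and 0.0244 in RWPE-1. The one just outside had a gap of 0.2999, with 0.870 in LNCaP-FGC and 0.899 in PC3, against 0.570 in DU145 and 0.543 in RWPE-1. The lower sites on either side of the limit had betas of 0.0546 and 0.310 in LNCaP-FGC and PC3 and 0.668 and 0.611 in DU145 and RWPE-1 just inside, and of 0.0442 and 0.182 and of 0.504 and 0.482 just outside.

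Within a pair the lines were close at some sites and far apart at others. The rule limits how far apart they can be, and shares over all sites were not taken. The counts are therefore not read as a trait of these sites. At the 418 higher sites the betas of LNCaP-FGC and PC3 were within 0.1 of each other at 248 (59.3%), and those of DU145 and RWPE-1 at 236 (56.5%). Both pairs were that close at 122 of the 418 sites (29.2%). At the 544 lower sites LNCaP-FGC and PC3 were within 0.1 at 315 (57.9%), DU145 and RWPE-1 at 303 (55.7%), and both pairs at 143 (26.3%). More than 0.3 separated LNCaP-FGC from PC3 at 56 higher and 44 lower sites, and DU145 from RWPE-1 at 57 higher and 50 lower sites. At such sites the distance within a pair was as large as the smallest gap that the rule allows between pairs.

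In the deposited betas the direction of the difference within a pair was even at the higher sites and lopsided at the lower ones. Shares over all sites were not taken, so this is not read as particular to these sites. Over all 27541 sites the mean beta was 0.302 in PC3 and 0.288 in LNCaP-FGC, and 0.340 in DU145 and 0.258 in RWPE-1. LNCaP-FGC was above PC3 at 214 of the 418 higher sites (51.2%), and DU145 above RWPE-1 at 213 (51.0%), but these shares were 55.0% and 38.0% after quantile normalization and 60.8% and 61.5% after a linear rescaling of each array. At the lower sites LNCaP-FGC was above PC3 at only 186 of 544 (34.2%), with a median difference (LNCaP-FGC minus PC3) of -0.0481, and DU145 was above RWPE-1 at 404 (74.3%), with a median difference (DU145 minus RWPE-1) of 0.0503. The lead of DU145 over RWPE-1 turned round after quantile normalization and was smaller after linear rescaling. DU145 was above RWPE-1 at 136 of the same 544 sites after quantile normalization, with a median difference of -0.0828. After linear rescaling it was above at 339 (62.3%), with a median difference of 0.0294. The DU145 array had the widest scale of the 4: over 1570 sites above 0.8 on every array it had a median of 0.925, where the other arrays had 0.889 to 0.904, and over 10916 sites below 0.1 on every array its median was 0.0151, where they had 0.0253 to 0.0348. The part of this scale in the counts was not tested beyond these rescalings. The order of LNCaP-FGC and PC3 kept its direction under both, with LNCaP-FGC the higher at 43.0% and 37.7% of the lower sites.

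**Figure D3:**
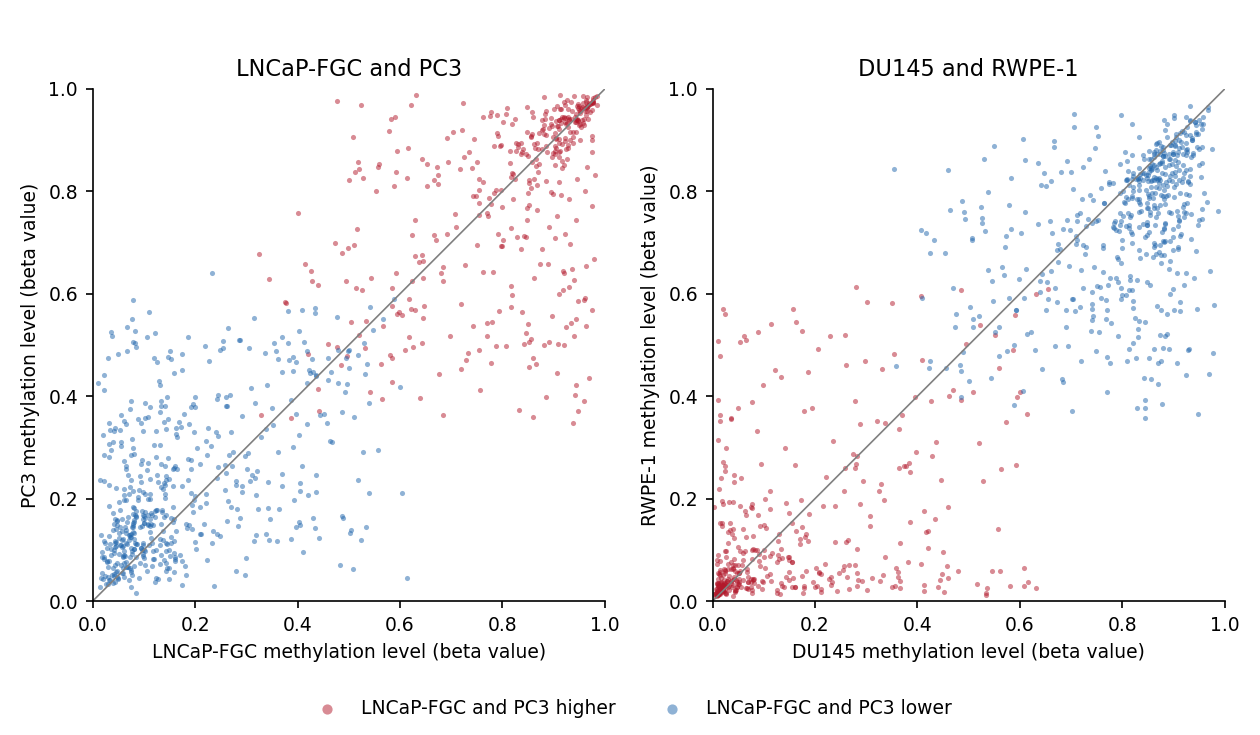
Beta of LNCaP-FGC (horizontal) against PC3 (vertical) on the left and of DU145 against RWPE-1 on the right, for the 418 sites with LNCaP-FGC and PC3 higher and the 544 with both lower. Each point is a site and the diagonal marks equal betas. Lower sites lie mostly under the diagonal in the DU145 panel, where DU145 was above RWPE-1 at 404 of 544 as deposited. It was above at 136 after quantile normalization and at 339 after linear rescaling.

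Each line's part in the rule was read by leaving that line out. LNCaP-FGC and PC3 were both at least 0.3 below RWPE-1 at 709 sites, and at 544 of these (76.7%) they were also that far below DU145. They were both at least 0.3 above RWPE-1 at 1439 sites, of which 418 (29.0%) also stood that far above DU145. In the deposited betas most sites low in both lines relative to the control were therefore members, and most sites high in both were not. Over all 27541 sites DU145 was at least 0.3 above RWPE-1 at 3873 and at least 0.3 below it at 503 as deposited. After quantile normalization these counts were 1758 and 1369. The shares of members were not taken on rescaled betas. Set against DU145 alone, LNCaP-FGC and PC3 were both lower at 2115 sites and both higher at 627, of which 25.7% and 66.7% were members. With LNCaP-FGC left out of the rule, PC3 stood apart from DU145 and RWPE-1 at 963 sites as the higher line and 989 as the lower, of which 43.4% and 55.0% were members. With PC3 left out, LNCaP-FGC did so at 1608 and 1723 sites, of which 26.0% and 31.6% were members.

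There are 3 ways to split the lines into 2 pairs, and the same rule was applied to the other two splits. PC3 and DU145 stood apart from LNCaP-FGC and RWPE-1 at 597 sites, and LNCaP-FGC and DU145 from PC3 and RWPE-1 at 470. The 962 sites at which LNCaP-FGC and PC3 paired made up 47.4% of the 2029 sites under any of the 3 splits. With 3 splits there is no test of this order. It was the same after quantile normalization, with 971, 396 and 364 sites, after linear rescaling, with 964, 573 and 471, and at a gap of 0.2, with 1543, 1025 and 798. At a gap of 0.6 LNCaP-FGC and PC3 still led, with 168 sites, and the others changed places, with 74 and 79.

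The splits also differed in direction. The pair of cancer lines was the higher one at 530 sites (1.92%) and the lower at 67 (0.243%) for PC3 and DU145, and at 430 (1.56%) and 40 (0.145%) for LNCaP-FGC and DU145. Their share of higher sites was 88.8% and 91.5%, against 43.5% for LNCaP-FGC and PC3. Quantile normalization brought these shares to 61.6%, 59.3% and 50.7%, while linear rescaling left them at 88.1%, 91.5% and 44.3%. The size of the contrast thus changed with quantile normalization and little with linear rescaling. Sites with room for a difference of 0.3 were also counted. Of 19056 sites at which DU145 and RWPE-1 were both at or below 0.7, LNCaP-FGC and PC3 were higher at 2.19%, and of 7957 at which both were at or above 0.3, they were lower at 6.84%. For PC3 and DU145 the shares were 2.65% higher and 1.00% lower, and for LNCaP-FGC and DU145 2.11% higher and 0.554% lower. At this gap in deposited betas the 3 pairs had similar shares of higher sites, and LNCaP-FGC and PC3 had the larger share of lower sites. At a gap of 0.4 LNCaP-FGC and PC3 had 271 higher sites, against 291 for PC3 and DU145 and 234 for LNCaP-FGC and DU145. At a gap of 0.6 they had the most, 109 against 66 and 78. At 0.3 they had the most after quantile normalization, with 492 against 244 and 216. After linear rescaling they had the fewest at 0.3, with 427 against 505 and 431. In the deposited betas the full switch was most frequent in the split with LNCaP-FGC and PC3 as a pair, with 72 higher and 26 lower sites. It was found at 25 and 1 for PC3 and DU145 and at 41 and 0 for LNCaP-FGC and DU145.

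The expression arrays of the same lines had no part in the rule. Of 33622 probes above the median of at least 1 array, 201 (0.598%) were at least 2-fold higher in both LNCaP-FGC and PC3 than in DU145 and RWPE-1, and 248 (0.738%) were at least 2-fold lower. These 449 probes made up 25.6% of the probes under any of the 3 splits, the smallest of the 3 shares. PC3 and DU145 stood apart from LNCaP-FGC and RWPE-1 at 821 probes (413 or 1.23% higher, 408 or 1.21% lower), and LNCaP-FGC and DU145 at 485 (253 or 0.752% higher, 232 or 0.69% lower). By direction, LNCaP-FGC and PC3 had the fewest higher sites, 418 against 530 and 430, and the most lower sites, 544 against 67 and 40. Their 201 higher probes were the fewest as normalized here, but their 248 lower probes were not. Only with both directions added was the split with the most sites in methylation the one with the fewest probes in expression. This order of the splits was the same without background correction (327, 596 and 353 probes), with arrays scaled to a common median (460, 827 and 494), in the authors' deposited log2 table (325, 592 and 355) and at 4-fold (77, 135 and 85). The lead of lower over higher probes was not as stable: with a common median 251 were higher and 209 lower, a higher share of 54.6% in place of 44.8%. Arrays give 1 value per line here, so no p-value is given, and since sites and probes have no common identifier the expression of the genes at the 962 sites could not be read.

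**Figure D4:**
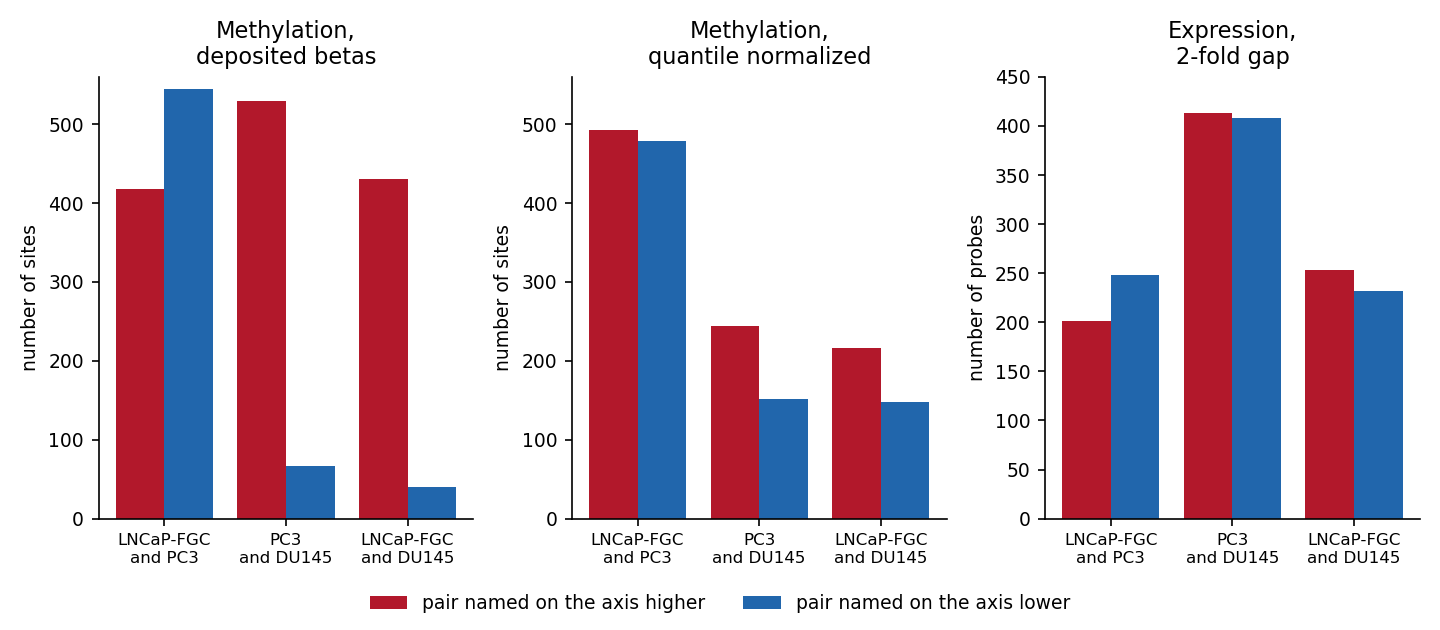
Number of sites (left and middle) or probes (right) at which the pair named on the horizontal axis stands above (first bar) or below (second bar) the other pair, for a gap of 0.3 in beta or 2-fold in expression. With both directions added, LNCaP-FGC and PC3 form the largest split in methylation, with 962 sites as deposited and 971 after quantile normalization. They form the smallest in expression, with 449 probes.

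The probes with the widest gaps ran from near or moderately above the median probe of their array to raw intensities far above it. Probe ILMN_1801832 had log2 normalized intensities of 14.88 in LNCaP-FGC and 12.63 in PC3, against 6.48 in DU145 and 6.58 in RWPE-1. Its raw intensity was 31136 in LNCaP-FGC and 7298 in PC3, against 164 in DU145 and 145 in RWPE-1, where the median probe had 178 and 151. Probe ILMN_1662932 had 15.14 in LNCaP-FGC and 12.32 in PC3, against 7.89 in DU145 and 6.72 in RWPE-1. At both probes LNCaP-FGC was above PC3. In the other direction ILMN_2173611 had 7.84 in LNCaP-FGC and 7.48 in PC3, against 14.14 in DU145 and 14.34 in RWPE-1. Probe ILMN_1663866 had 6.04 in LNCaP-FGC and 6.54 in PC3, against 12.60 in DU145 and 14.47 in RWPE-1. Where the low pair is near background the gap can depend on the background correction. For ILMN_1663866 it was 6.05 on the log2 scale (66.3-fold) as normalized here and 5.31 without background correction. In the authors' deposited table, made by steps not given in the sources used here, it was 5.28 (38.9-fold).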

How the data were processed

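Per the labels' protocols, bisulfite-converted DNA was hybridised to Illumina HumanMethylation27 beadchips and labelled cRNA to HumanHT-12 beadchips. The authors deposited methylation as beta values, a fraction per CpG site, without intensities or detection p-values; they were used as deposited, leaving out 37 sites with a blank. The authors deposited expression as raw intensity per probe, exported from BeadStudio 3.1.3 per the series text, and as a log2 table whose columns share 1 distribution. How that log2 table was made is not given in the sources used here. Raw intensities were background-corrected with limma 3.58.1 (normexp, offset 50, R 4.3.3), quantile normalized and set to log2. Probes above their array's median on at least 1 array were kept. Other steps used Python 3.11.15, pandas 2.3.3 and numpy 2.4.6.

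Columns were matched to samples by line name, 1 array per line and assay. No test between lines was made. The code that counts pairings was checked on simulated betas with planted pairs. The number of arrays limits precision. The linear rescaling set each array's median over always-low and always-high sites to the mean of the 4 arrays. Sites and probes named are the 2 with the widest gap in each direction. Members, lists and comparisons were chosen with earlier results of these data known. Gene lists of prostate and methylation genes could not be applied, since no table used here names a gene for a probe or site.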

Additional observations from a re-analysis of the deposited data

Results flagged for a closer look

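At some of the sites DU145 and the pair of LNCaP-FGC and PC3 lay on opposite sides of RWPE-1, each by at least 0.3 in beta. This was so at 24 of the 418 sites with LNCaP-FGC and PC3 higher, where DU145 was at least 0.3 below RWPE-1, and at 43 of the 544 sites with both lower, where DU145 was at least 0.3 above RWPE-1. As no line has a repeat array, this was not tested. After quantile normalization these numbers were 58 and 4, and after linear rescaling 22 and 36, so which direction holds more such sites depends on the scaling. Over all 27541 sites DU145 was at least 0.3 below RWPE-1 at 503 and at least 0.3 above it at 3873 as deposited. The counts over all sites were 1369 and 1758 after quantile normalization and 509 and 3732 after linear rescaling. The reverse has DU145 at least 0.3 from RWPE-1 on the side of LNCaP-FGC and PC3. It was found at 33 higher and 7 lower sites as deposited. After linear rescaling the numbers were 32 and 9, and after quantile normalization 8 and 72.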

How the results depend on the processing

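No paired analysis was possible because each line has 1 array per assay and no test was made. Counts were taken as similar when within 1.5 times of the reported one, and 20 of 44 alternative counts were. The 418 higher and 544 lower sites became 635 and 908 at a gap of 0.2, 271 and 283 at 0.4, and, at sizes chosen after seeing the data, 178 and 151 at 0.5 and 109 and 59 at 0.6. Without LNCaP-FGC they were 963 and 989, without PC3 1608 and 1723, without DU145 1439 and 709, and without RWPE-1 627 and 2115; a rule on fewer lines admits more sites by construction. On the log2(beta / (1 - beta)) scale, with a gap of at least 2, they were 619 and 657. After quantile normalization 351 of the 418 (84.0%) and 374 of the 544 (68.8%) kept their gap of 0.3, and after linear rescaling 416 and 529. Sites under the splits with LNCaP-FGC and PC3, PC3 and DU145, and LNCaP-FGC and DU145 as pairs numbered 1543, 1025 and 798 at a gap of 0.2 and 554, 322 and 245 at 0.4; for PC3 and DU145 quantile normalization gave 396 in place of 597, and the cause was not tested. The 201 higher and 248 lower expression probes became 133 and 194 without background correction and 28 and 49 at 4-fold; the filter on dim probes changed neither count. The gaps at the 4 named sites (0.737 to 0.961 after quantile normalization) stayed within 1.5 times. Those at the 4 named probes kept their direction in the authors' deposited log2 table, but as folds ILMN_1801832 (66.1-fold here, 38.9-fold there) and ILMN_1663866 (66.3-fold and 38.9-fold) moved by over 1.5 times. Without intensities or detection p-values for methylation, signal over background is unknown.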
